A study of Mus musculus with 10 samples.

Results

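The ATP synthase c-subunit genes of the mouse are Atp5g1, Atp5g2 and Atp5g3, also called Atp5mc1, Atp5mc2 and Atp5mc3. They were taken by name, 3 of the 56691 genes in the deposited count table, and were chosen on their measured levels: Atp5g3 and Atp5g1 were lower after restraint in an earlier look at these same libraries. Their differences between control and restraint are therefore given as a description, with no test. The libraries hold RNA bound to ribosomes, enriched from dopaminergic neurons of the ventral tegmental area, a midbrain region, through the tagged ribosomal protein NBL10-HA. The study asked what 30 min of restraint, an acute stressor, changes in these neurons.

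Each group had 5 libraries. All came from male C57BL/6 mice labelled WT, and the tagged protein was carried by the dopaminergic neurons of both groups. Control mice were not restrained, and the other group was restrained for 30 min. The age of the mice, what drives the NBL10-HA construct, and whether a library came from 1 animal or a pool are not given in the sources used here. The p-values below therefore measure the spread between these libraries, part of which may be technical. Unenriched RNA was not analysed here.

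ATP synthase of the inner mitochondrial membrane makes ATP from ADP and phosphate as protons flow back into the matrix. The protons pass along a ring of c subunits in the membrane part of the enzyme, and the turning ring drives the central stalk inside the catalytic F1 head. In mammals the c subunit is encoded in the nucleus by 3 genes that give the same mature protein behind different import presequences, which are cut off in mitochondria. Dopaminergic neurons of the midbrain are pacemakers, and they rely heavily on mitochondrial ATP.

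The coding ends of the genes are shown first, because they encode what the 3 genes have in common, in bases that partly differ. How far these differences let reads be told apart was not tested. In the reference transcripts (GENCODE M21, GRCm38), the last 78 codons translate to the same amino acids in all 3 genes. These 234 bases follow, 5′ to 3′, with capitals at the 63 positions where the 3 genes do not all have the same base.
Atp5g1: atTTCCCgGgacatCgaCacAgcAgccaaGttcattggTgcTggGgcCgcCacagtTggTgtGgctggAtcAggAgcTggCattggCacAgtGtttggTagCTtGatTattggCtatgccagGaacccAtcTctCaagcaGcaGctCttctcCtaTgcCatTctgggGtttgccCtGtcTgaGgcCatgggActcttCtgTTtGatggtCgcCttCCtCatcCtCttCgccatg
Atp5g2: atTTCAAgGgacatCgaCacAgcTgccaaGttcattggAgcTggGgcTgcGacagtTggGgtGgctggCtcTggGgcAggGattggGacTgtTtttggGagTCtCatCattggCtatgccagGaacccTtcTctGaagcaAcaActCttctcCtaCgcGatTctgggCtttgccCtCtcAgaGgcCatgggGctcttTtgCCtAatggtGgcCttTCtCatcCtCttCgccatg
Atp5g3: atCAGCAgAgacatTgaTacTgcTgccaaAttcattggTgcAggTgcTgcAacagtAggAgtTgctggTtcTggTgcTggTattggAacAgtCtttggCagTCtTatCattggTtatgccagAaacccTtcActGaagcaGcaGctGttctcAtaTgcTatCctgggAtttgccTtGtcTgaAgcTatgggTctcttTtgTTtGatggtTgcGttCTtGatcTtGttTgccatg
Of those 63 positions, 55 were the last base of a codon. Atp5g1 and Atp5g2 were the closest pair, with 36 differing bases and 84.6% identity. Atp5g3 differed from Atp5g1 at 50 bases and from Atp5g2 at 53, and it shared no identical run longer than 11 bases with either. The whole reading frames had 136 codons in Atp5g1, 146 in Atp5g2 and 141 in Atp5g3, which leaves 58, 68 and 63 codons ahead of the shared end. In these leading parts the pairs had 36.1% (Atp5g1 and Atp5g2), 44.4% (Atp5g1 and Atp5g3) and 36.2% (Atp5g2 and Atp5g3) identical amino acids over the aligned columns.

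The genes lie on 3 chromosomes, all on the minus strand, at these positions in the deposited table, whose annotation is of GRCm39. Atp5g3 (ENSMUSG00000018770.10) is at chr2:73738791-73741670, with 2181 bases of exon. Atp5g1 (ENSMUSG00000006057.16) is at chr11:95959678-95966496, with 4912 bases of exon. Atp5g2 (ENSMUSG00000062683.12) is at chr15:102571299-102580787, with 1675 bases of exon. Counts were made over all exons of a gene, coding and untranslated parts together.

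Close copies elsewhere in the genome make the level of Atp5g2, and that of Atp5g1 in part, uncertain. The pseudogene Gm10175 matched 645 bases of an Atp5g2 transcript with 0 mismatches, and Gm10231 matched 441 bases with 100% identity. Copies covered 16.9% to 100% of the length of each of the 4 Atp5g2 transcripts, 100% being the 441-base coding one. Gm10039 matched 411 bases of Atp5g1 with 1 mismatch. Pseudogene copies covered 59.5% and 69% of the short Atp5g1 transcripts (691 and 596 bases), but 10.9% and 11.1% of the long ones (4715 and 4660 bases). Shorter Atp5g1 matches in genes that are not pseudogenes were left out of these percentages. The longest was 169 bases at 96.5% identity, in Gm16702. Others were in Ankrd6 (128 bases, 95.3%) and Uba1 (101 bases, 95%), among further genes. Atp5g3 had no copy of at least 100 bases at 95% identity. The file header records no option to count reads that map to several places, so reads inside these matches could be missing from Atp5g1 and Atp5g2. Atp5g2 also shares 75 exon bases with Mir688 on the same strand, which had 0 counts in every library.

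Library totals ran from 56082358 to 86584968 counts in genes, and 18440 genes passed the filter on low counts, the 3 c-subunit genes included. Restraint 1 stood apart from the other libraries, at 92.1 on the first principal component (22.6% of the variance) where the others lay between -19.2 and 4.08. Of 28 marker genes of 7 cell types, none was at 0 in any library. By edgeR's quasi-likelihood test with Benjamini-Hochberg adjustment 0 of them passed, beside 0.0163% of all genes lower and 0.00542% higher. At those shares, 0 of 28 tells little about the cell types. The summed level of dopamine neuron markers was 978 to 1465 CPM (counts scaled to the normalized library total) in controls and 1167 to 1622 CPM after restraint. Astrocyte markers summed to 3322 to 3826 CPM in controls and 3709 to 4780 CPM after restraint, and oligodendrocyte markers to 1238 to 1560 and 1234 to 1709 CPM. Markers of GABA neurons summed to 866 to 1224 CPM in controls and 901 to 1261 CPM after restraint, and those of glutamate neurons to 395 to 431 and 340 to 478 CPM. Microglia and endothelium markers summed to at most 17.3 and 8.17 CPM in any library. Markers of glia and of other neurons were thus present beside those of the labelled neurons. Their part in the results was not tested. In such bulk libraries, fewer cells of a type and less RNA per cell cannot be told apart.

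In control libraries Atp5g3 supplied most of the c-subunit counts per length. Per kilobase of exon, the control level was 257 ± 40.5 CPM per kb (SD, n = 5) for Atp5g3, with libraries from 199 to 293. It was 66.6 ± 8.93 CPM per kb for Atp5g2 (54.5 to 75.1) and 62.3 ± 7.90 CPM per kb for Atp5g1 (51.7 to 73.4). Atp5g3 was above both others in every control library, while the ranges of Atp5g2 and Atp5g1 overlapped. As shares of the summed level per kilobase in controls, Atp5g3 held 66.3% ± 3.39, Atp5g2 17.5% ± 3.29 and Atp5g1 16.2% ± 1.55 (SD, n = 5). The order of Atp5g1 and Atp5g2 depended on the length used: with each gene's shortest coding transcript Atp5g1 held 33.1%, and with its longest 6.60%, against 16.5% and 15.2% for Atp5g2. Atp5g3 held the largest share under each length, from 50.4% to 78.2%. Reads inside pseudogene matches could be missing from Atp5g1 and Atp5g2 but not from Atp5g3, and such a loss would raise the share of Atp5g3. How much it adds to these shares was not tested.

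After restraint the level per kilobase was 137 ± 45.7 CPM per kb for Atp5g3, 58.0 ± 6.63 for Atp5g2 and 42.0 ± 6.02 for Atp5g1 (SD, n = 5). The share of Atp5g3 was 56.9% ± 5.09 (52.2% to 65.3%), against 61.1% to 70.4% in controls. Atp5g2 held 25.1% ± 3.39 and Atp5g1 18.0% ± 1.78. By exon length, Atp5g3 still had the highest mean level of the 3 in the restraint group. The shares depended on the length used here too. With each gene's shortest coding transcript, the restraint means were 41.7% for Atp5g3, 35.5% for Atp5g1 and 22.7% for Atp5g2. The ranges of Atp5g3 (37.2% to 50.1%) and Atp5g1 (31.2% to 38.0%) then overlapped. With the longest, the means were 69.6%, 7.65% and 22.7%.

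Atp5g3 had the largest difference of the 3 genes between the groups. Its level in controls 1 to 5 was 627, 502, 638, 598 and 435 CPM. In restraint libraries 1 to 5 it was 262, 335, 246, 198 and 455 CPM. Restraint 4 was the lowest library and restraint 5 the highest of its group, and the groups overlapped only in restraint 5, which lay above control 5. The control mean was 560 ± 88.3 CPM and the restraint mean 299 ± 99.8 CPM (SD, n = 5 each), a fitted fold of 0.534. The log2 difference was -0.90 ± 0.17 (SE), and 324 of the 18440 genes (1.76%) had a lower one. The raw counts behind these values ran from 13265 to 43549, so counting error was small beside the spread between libraries.

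**Figure D1:**
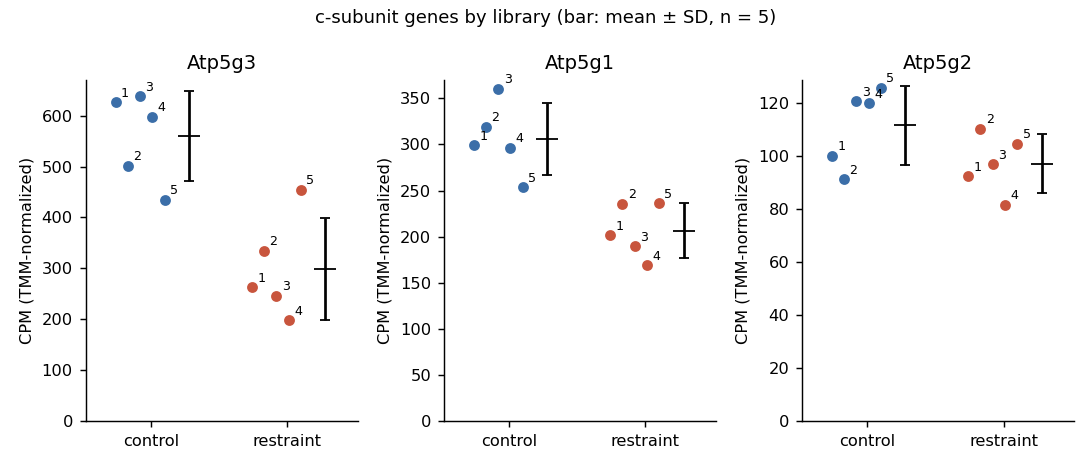
Level of each c-subunit gene in each library, in CPM, with controls and restraint side by side; points are libraries and bars mark the mean with its SD (n = 5 each). Atp5g1 libraries do not overlap between the groups, Atp5g3 overlaps only through restraint 5 at 455 CPM, and Atp5g2 overlaps broadly.

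Atp5g1 was lower in every restraint library than in every control library. Controls 1 to 5 had 299, 319, 361, 297 and 254 CPM. Restraint libraries 1 to 5 had 202, 236, 189, 169 and 236 CPM. Control 3 was the highest and control 5 the lowest of the controls, and restraint 4 was again the lowest library of all. The control mean was 306 ± 38.8 CPM and the restraint mean 206 ± 29.6 CPM (SD, n = 5 each), a fitted fold of 0.675 and a log2 difference of -0.57 ± 0.11 (SE). A lower log2 difference was found for 920 genes (4.99%). Over all genes tested, 1.36% had every restraint library below every control library and 1.25% above; the choice of genes used this contrast, so nothing is read from that.

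Atp5g2 showed little difference, and its groups overlapped. Controls 1 to 5 had 100, 91.3, 121, 120 and 126 CPM. Restraint libraries 1 to 5 had 92.3, 110, 96.9, 81.5 and 105 CPM. Restraint 4 was the lowest library here too, but restraint 2 and restraint 5 exceeded controls 1 and 2. The means were 112 ± 14.95 and 97.1 ± 11.1 CPM (SD, n = 5 each), with a log2 difference of -0.20 ± 0.10 (SE). For 3569 genes (19.4%) that difference was lower.

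The 3 genes together had 1026, 912, 1120, 1015 and 814 CPM in controls 1 to 5. They had 556, 681, 532, 448 and 796 CPM in restraint libraries 1 to 5. No restraint library reached the lowest control, though restraint 5 came close to control 5. The means were 977 ± 117 and 603 ± 136 CPM (SD, n = 5 each), a ratio of 0.617.

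Ratios of 2 genes within a library do not depend on how libraries are scaled. The ratio of Atp5g3 to Atp5g2 counts was 6.26, 5.49, 5.29, 4.99 and 3.46 in controls 1 to 5, and 2.84, 3.04, 2.54, 2.43 and 4.35 in restraint 1 to 5. Control 5 had the lowest control ratio and restraint 5 the highest restraint ratio, and the other 4 restraint libraries were below all controls. The group means were 5.10 ± 1.03 and 3.04 ± 0.770 (SD, n = 5 each). For Atp5g3 to Atp5g1 the ratio was 1.83 ± 0.218 in controls and 1.42 ± 0.292 after restraint, and again 4 of 5 restraint libraries lay below all controls, restraint 5 at 1.92 being the exception. For Atp5g1 to Atp5g2 it was 2.79 ± 0.564 and 2.12 ± 0.117, with 1 of 5 restraint libraries below all controls. These ratios rest on the contrast that chose the genes and were not tested.

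**Figure D2:**
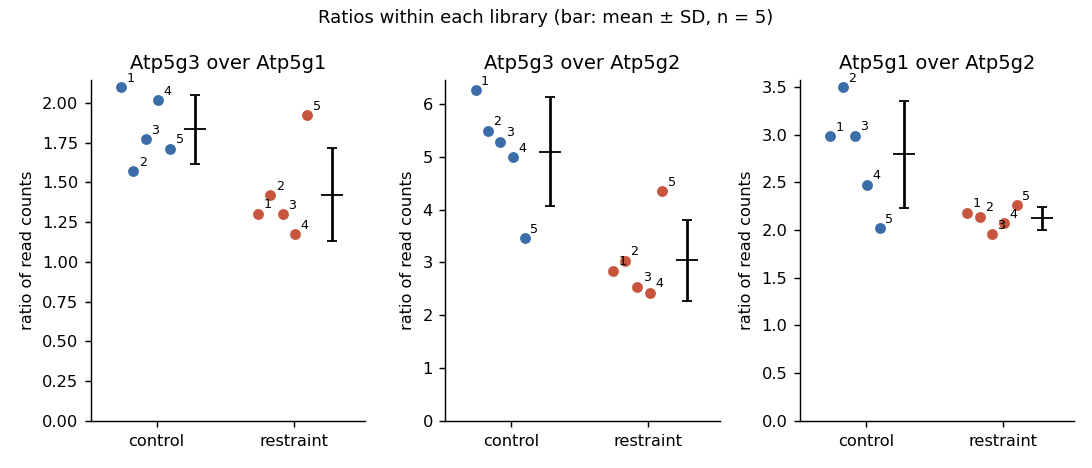
Ratios of counts between c-subunit genes within each library, controls beside restraint; points are libraries and bars mark the mean with its SD (n = 5 each). In both ratios with Atp5g3 on top, 4 of 5 restraint libraries lie below all controls, and restraint 5 is the one that does not.

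The same ratio was taken to Atp5b and Atp5e, the only genes of the F1 part used for it. Atp5b encodes the catalytic beta subunit, and the ratio of Atp5g3 to Atp5b was 0.327 in controls and 0.184 after restraint, with 4 of 5 restraint libraries below all controls. For the ratio to Atp5b, 4 of 5 restraint libraries lay below all controls for Atp5g1 too, and 1 of 5 for Atp5g2. Atp5e encodes the epsilon subunit at the foot of the central stalk, next to the c ring, and its own log2 difference was -0.997. The ratio of Atp5g3 to Atp5e had a mean of 5.20 ± 0.571 over control and 5.61 ± 0.611 over restraint libraries (SD, n = 5 each), with 0 restraint libraries below all controls. Atp5e had the lowest log2 difference of the F1 genes. The ratios to Atp5b and Atp5e also rest on the contrast that chose the c-subunit genes and were not tested.

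The other genes of the enzyme and of its assembly were a list of 22, of which 21 passed the filter on low counts; mt-Atp8 did not. By edgeR with Benjamini-Hochberg adjustment over all genes, 0 rose and 0 fell, beside 0.0163% of all genes lower and 0.00542% higher. At an unadjusted p under 0.05, 10 were lower and 0 higher, beside 6.04% and 5.64% of all genes. The log2 difference was negative for 18 and positive for 3, with a median of -0.21 beside -0.0022 over all genes tested. limma-voom called 0, and DESeq2 called 3 as lower (Atp5e, Atp5l and Atp5o) and 0 as higher, beside 1.04% of all genes lower and 0.754% higher. The list was drawn up with earlier results of these data known.

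Among the 5 F1 genes the median log2 difference was -0.09. Atp5e stood out with a control mean of 109 ± 19.8 CPM and a restraint mean of 54.4 ± 20.4 CPM (SD, n = 5 each), a log2 difference of -0.997 ± 0.20 (SE) and an adjusted p of 0.0750 by edgeR. Its groups overlapped only in restraint 5 at 81.1 CPM, above control 5 at 79.7 CPM, the same pair that overlapped for Atp5g3. Atp5a1, the alpha subunit, had a log2 difference of -0.21 ± 0.07. The beta subunit gene Atp5b was at -0.09 ± 0.06, Atp5c1 (gamma) at -0.01 ± 0.08 and Atp5d (delta) at -0.01 ± 0.11.

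The 9 genes of the peripheral stalk and the membrane part had a median log2 difference of -0.25. By edgeR 6 were lower at an unadjusted p under 0.05, beside 6.04% of all genes. After Benjamini-Hochberg adjustment 0 were lower, the smallest adjusted p by edgeR being 0.162. Atp5l, the g subunit, was at -0.49 ± 0.13. Its groups did not overlap, but narrowly, with at most 83.6 CPM after restraint and at least 84.5 CPM in controls. Over all genes tested, 1.36% had every restraint library below every control library. Atp5o, the stalk subunit that caps the F1 head, was at -0.44 ± 0.12, and Atp5k, the e subunit, at -0.46 ± 0.19. Atp5j, coupling factor 6 of the stalk, was at -0.30 ± 0.09. Usmg5, Atp5j2 and Atp5mpl, small subunits of the membrane part, were at -0.25, -0.25 and -0.21. Atp5f1 and Atp5h, the b and d subunits of the same stalk, were at 0.04 ± 0.10 and 0.02 ± 0.11. These last were within 1 SE of 0.

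The assembly factors had a median of -0.05 over 5 genes. Tmem70, which helps build the c ring, was at -0.23 ± 0.11, and Tmem242, also linked to c-ring assembly, at -0.03. Atpaf1 and Atpaf2, chaperones of the F1 beta and alpha subunits, were at -0.05 and 0.09, and Fmc1, another F1 assembly factor, at -0.50 ± 0.22. The inhibitor gene Atpif1 was at -0.15 ± 0.16. The mitochondrially encoded mt-Atp6, whose a subunit carries protons to the c ring, was at -0.32 ± 0.28 from a control mean of 2.10 CPM.

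**Figure D3:**
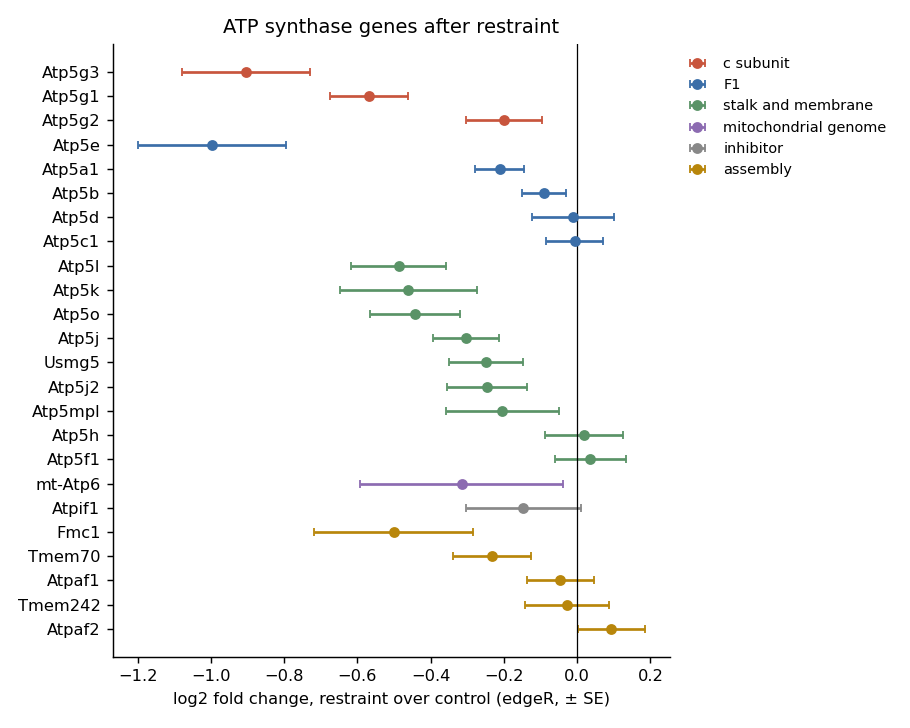
Log2 difference, restraint minus control, of the c-subunit genes and of the 21 other ATP synthase and assembly genes tested; points are fitted values and bars are SE. Atp5e at -0.997 and Atp5g3 at -0.90 lie farthest to the left, and most genes of the F1 head lie near 0.

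Likeness to other genes from library to library was measured as the Pearson correlation of log2 CPM over the 10 libraries after subtracting each group's mean, among 7707 genes with a mean of at least 20 CPM. It is a description, and the points share libraries and their depth. The names depend on the measure: by Spearman's correlation 1 of the 5 named for Atp5g3, 1 for Atp5g1 and 0 for Atp5g2 were again among the 5 closest. The closest to Atp5g3 were Gabarapl2, an autophagy gene of the ATG8 family (0.98), the complex I subunit gene Ndufs3 (0.97) and Ufc1, a conjugating enzyme of ufmylation (0.95). Rps21, of the small ribosomal subunit, and Cox7a2, of cytochrome c oxidase, followed at 0.95 each.

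For Atp5g1 the closest were Polr2f, a subunit shared by the RNA polymerases (0.95), Atp5e (0.95), the complex I gene Ndufa2 (0.94), Minos1 of the mitochondrial cristae (0.94) and Yif1a (0.94). For Atp5g2 they were the proteasome gene Psmb1 (0.98), Bag5 (0.98), Tbcb, a tubulin folding cofactor (0.97), Rps7 (0.97) and Fam133b (0.97). Atp5g1 was the 148th most like Atp5g3, with a correlation of 0.84. Atp5g2 was 1676th, with 0.45, and its correlation with Atp5g1 was 0.32. The differences between these correlations were not tested.

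The promoter of Atp5g2 is shown because it was the one of the 3 that held a searched motif. These are the 250 bases before its start in RefSeq (GRCm38.p6, chr15:102671048-102671297, minus strand), 5′ to 3′, with the match to the NRF1 motif in capitals.
Atp5g2 promoter: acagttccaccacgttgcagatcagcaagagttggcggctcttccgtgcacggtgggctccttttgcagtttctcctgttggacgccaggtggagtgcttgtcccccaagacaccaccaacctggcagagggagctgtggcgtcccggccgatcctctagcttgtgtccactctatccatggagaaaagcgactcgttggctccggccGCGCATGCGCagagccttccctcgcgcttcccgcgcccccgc
NRF1 is a factor known for genes of mitochondrial proteins. Its motif, the letters in capitals, was matched once, 42 bases before the start, and the core GCATGCGC lies inside that match, where it is read on both strands. Of all 32851 RefSeq promoters of this length, 0.782% held the motif and 2.26% the core. The other motifs searched on both strands were CCGGAAG for ETS factors (6.91% of all promoters), GGGCGG for SP1 (32.7%), TGACGTCA for CRE-binding factors (1.55%), TTCNNNGAA for STAT factors (7.02%) and TATAAA for the TATA box (12.4%). None of these was found in the 250 bases before Atp5g1, Atp5g2 or Atp5g3, and neither NRF1 motif before Atp5g1 or Atp5g3. The 3 promoters had 53.6% (Atp5g1), 62.8% (Atp5g2) and 54% (Atp5g3) G and C bases. A match is a description of these letters only.

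Restraint 5 had the most weight on the Atp5g3 difference. Without it the log2 difference was -1.11, and without restraint 4 it was -0.78; leaving out any of the other 8 libraries gave values between these. The range for Atp5g1 was -0.64 to -0.49 and for Atp5g2 -0.26 to -0.14, so no direction turned. Libraries also differed in how level followed gene length, by -0.0701 to 0.0661 log2 units per doubling of exon length in controls and -0.0673 to 0.0962 after restraint. With that trend removed the differences were -0.90 for Atp5g3, -0.57 for Atp5g1 and -0.16 for Atp5g2. The median of the other ATP synthase genes moved more, to -0.13, and it was -0.14 without control 3.

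**Figure D4:**
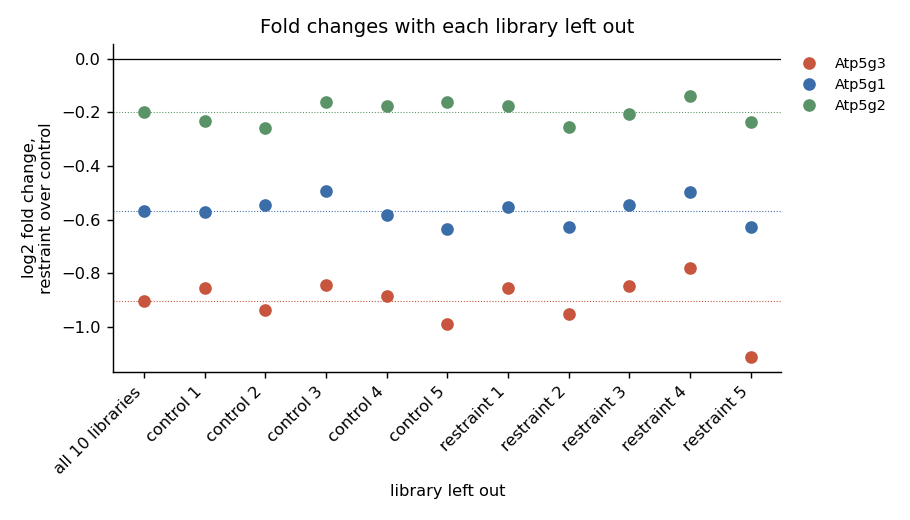
Log2 difference, restraint minus control, of each c-subunit gene with all 10 libraries and with each library left out in turn. All values are below 0 for the 3 genes, and the lowest for Atp5g3 is -1.11, without restraint 5.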

How the data were processed

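Ribosome-bound RNA of 5 control and 5 restraint libraries was sequenced, and groups came from the sample labels. The authors deposited whole-number counts per gene, which featureCounts 2.0.3 summed over the exons of each GENCODE M30 gene from paired input, per the file headers. The headers record no option for strand, read pairs or multi-mapping reads. Reads were handled with FastQC, Trimmomatic and STAR, with mm10 as build, per the submitters' processing notes; M30 annotates GRCm39, and coordinates are printed as in the table. Of 56691 genes, 52073 were given symbols by identifier.

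Counts were tested with edgeR 4.0.16 (quasi-likelihood, TMM, filterByExpr with a count minimum of 10 and a total minimum of 15, adjusted p threshold 0.05) over 18440 genes. SE came from the log2 difference and F. Alternatives were DESeq2's size factors, library size scaling, mitochondrial genes left out, no filter, limma-voom 3.58.1, DESeq2 1.42.0, removal of a length trend (lowess span 0.3), a replicate block, and each library left out. Transcript lengths other than all exons were added after the data were seen. R was 4.3.3, Python 3.11.15 and BLAST 2.17.0. The edgeR step was tested on simulated data for 18005 genes of the restraint against control design. It recovered 81% of genes changed 1.5-fold and 99% of those changed 2-fold. Among its 191 calls 11 (5.76%) had been left unchanged. The changed genes were drawn only from those above a minimum level. Counts were simulated independently at the fitted dispersions, with no length trend or library that stood apart, so these shares need not hold for the real libraries.

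The 3 genes and the lists were chosen with earlier results of these data known. Named genes were the 3 members, the 22 other ATP synthase genes, the 5 genes most like each member (predicted gene models left out), and copies of at least 100 bases at 95% identity. Likeness used log2 CPM with a prior count of 2.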

Additional observations from a re-analysis of the deposited data

Results flagged for a closer look

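Groups of 5 libraries were checked for 1 library far from the rest, for the 3 c-subunit genes and the other ATP synthase genes tested. Of 48 groups, 5 held one. By chance about 5% of the groups, not 5 groups, would hold one. None was in a c-subunit gene. Atp5a1, the alpha subunit gene, was at 1489 CPM in restraint 5, with the other restraint libraries between 1246 and 1278. Atp5f1, of the peripheral stalk, was at 415 CPM in control 2, with the other controls between 552 and 578. The mitochondrially encoded mt-Atp6 was at 3.69 CPM in control 3, with the others between 1.54 and 1.99. The assembly factor gene Atpaf2 was at 46.4 CPM in control 4, with the others between 37.7 and 40.1. The assembly factor gene Fmc1 was at 30.0 CPM in control 3, with the others between 18.3 and 21.6.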

How the results depend on the processing

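No result turned direction. The number of all genes called lower and higher by edgeR with Benjamini-Hochberg adjustment, 3 and 1, was 12 and 5 with library size scaling, 199 and 103 for every gene with a count, 192 and 139 by DESeq2, and 48 and 20 with the length trend removed. DESeq2's size factors, limma-voom and leaving out mitochondrial genes gave 3 and 1. Leaving out 1 library gave 0 to 83 lower and 0 to 9 higher, the most without restraint 5. The other ATP synthase genes called lower, 0 at first, were 5 for every gene with a count, 3 by DESeq2, 1 with the length trend removed (Atp5e), and 0 to 1 with a library left out (Atp5e without restraint 5). The cause was not tested.

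The share in controls moved with length: without length it was 31.4% for Atp5g1, 11.6% for Atp5g2 and 57.1% for Atp5g3, with the shortest transcript 33.1% for Atp5g1 and 50.4% for Atp5g3, and with the longest 6.60% and 78.2%. Of the 5 most like genes, Spearman's correlation kept 1 for Atp5g1, 0 for Atp5g2 and 1 for Atp5g3, and no centring kept 3, 2 and 4.

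Replicate numbers are not stated to pair the libraries. Same-numbered ones had correlations of -0.164 to 0.027 (5 pairs) and different-numbered ones of -0.150 to 0.222 (20 pairs). Of the controls, 0 correlated best with their own number. Correlations over 5 pairs cannot settle whether the libraries were paired. With a replicate block, edgeR called 0 genes lower and 0 higher (915 and 789 at an unadjusted p under 0.05), and the log2 differences were -0.95 for Atp5g3, -0.57 for Atp5g1 and -0.20 for Atp5g2. The pseudogene copies had at most 241 counts in a library, against 10407 or more for Atp5g1 and 5326 or more for Atp5g2. Reads that map to both a copy and its parent could be missing from both counts, which was not tested.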

Other observations

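The pseudogene copies had few counts, and were looked at after their values were seen. Gm10175, the copy of Atp5g2 with 0 mismatches over 645 bases, had 26 to 62 counts in controls and 0 to 18 after restraint. These unscaled counts did not overlap between the groups. Over all genes tested, 1.36% had every restraint library below every control library in CPM, and nothing is read from the separation of Gm10175. Its log2 difference was -2.11 ± 0.70 (SE), with an adjusted p of 0.235 by edgeR. Gm10039, the copy of Atp5g1, had 66 to 241 counts in controls and 50 to 118 after restraint, with a log2 difference of -0.96 ± 0.31 (SE) and an adjusted p of 0.219 by edgeR. Gm10231 had 2 to 16 counts in controls and 0 to 3 after restraint and did not pass the filter on low counts. How reads divide between these copies and their parent genes was not tested.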
